A study of Avena sativa with 6 samples.

Results

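The genes described here encode the 4 enzymes that build the galactolipids and the sulfolipid of plastid membranes. They are monogalactosyldiacylglycerol (MGDG) synthase, digalactosyldiacylglycerol (DGDG) synthase, and the sulfolipid enzymes SQD1 and SQD2. A gene was taken as a member where its KEGG annotation in the deposited table carried the number of 1 of these enzymes (K03715, K09480, K06118 and K06119, in the order above), which gave 44 of the 136488 genes listed. MGDG synthase had 13 genes, DGDG synthase 16, SQD1 3 and SQD2 12. Expression was measured by RNA-seq in peeled grains of Baiyan No. 9 (BY9), an oat cultivar described as high in oil. In 1 group the ears were shaded for 4 days after flowering, and in the other they were left unshaded, with 3 libraries in each group and no other treatment in the labels. Whether the libraries within a group stem from different plants is not stated, so a p-value reflects the spread between libraries, which may be technical. The grain is a bulk sample, in which fewer cells of a type and less RNA per cell cannot be told apart.

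Galactolipids are the main lipids of chloroplast membranes and carry no phosphate. MGDG synthase adds galactose from UDP-galactose to diacylglycerol, and DGDG synthase adds a further galactose to MGDG. In Arabidopsis, MGDG synthase of the inner plastid envelope serves thylakoid growth, while the outer envelope forms are known from phosphate starvation, when galactolipids replace phospholipids. SQD1 makes UDP-sulfoquinovose from UDP-glucose and sulfite, and SQD2 moves that sugar onto diacylglycerol to give the sulfolipid of thylakoids. Oat is hexaploid, so most of these genes are present as several close copies.

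Levels are in FPKM, which divides the fragments of a gene by its length and by the library's total, so that genes can be compared. The reads behind each library are unknown. Gene IDs are written without their shared beginning, so that AVESA.00010b.r2.5AG0845430 appears as 5AG0845430, and their first 2 letters give the chromosome as the ID states it. A gene was tested where its mean over the 6 libraries was at least 1 FPKM, which 36 members reached. That mean takes both groups, so a gene low in 1 group can enter through the other. The members 2CG0294140, 1DG0153750 and 7CG0684370 entered through the ear-shaded libraries, with unshaded means of 0.751, 0.720 and 0.887 FPKM. The copy 2CG0299630 entered through the unshaded libraries, with an ear-shaded mean of 0.849 FPKM. With no filter on low values, all 36 kept the same call. The test was a limma model on log2(FPKM + 1), and a gene passed with a Benjamini-Hochberg adjusted p under 0.05 over the 58283 genes tested. Fold differences below are ratios of mean FPKM. Log2 fold changes are differences in log2(FPKM + 1), so the change of a gene with low values is understated.

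Over the whole grain transcriptome the comparison was broad. Of all genes tested, 42.4% were higher and 21.5% lower in ear-shaded grains, and in 70.2% the libraries of the groups did not overlap. The median log2 fold change of all genes was 0.26 with the FPKM as deposited, -0.02 with median-of-ratios scaling, 0.04 with quantile normalization and 0.35 with each library scaled to the same sum. The grain markers were present in every library. Granule-bound starch synthase, 8 genes, summed to between 485 and 634 FPKM unshaded and between 369 and 453 FPKM ear-shaded, with 0 of the 8 at zero throughout. The 87 genes of the light-harvesting antenna summed to between 12.8 and 20.8 FPKM unshaded and between 583 and 728 FPKM ear-shaded. The 28 genes with gliadin-domain text summed to between 11373 and 23016 FPKM unshaded and between 3216 and 5486 FPKM ear-shaded, 3.96-fold lower in the means. The 9 genes with oleosin text, taken as a marker of oil-storing embryo and aleurone, were 3.64-fold lower. They summed to between 18.2 and 32.0 FPKM unshaded and between 7.05 and 7.61 FPKM ear-shaded. The part of green tissue or of storage tissue in the results below was not tested.

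The lipid genes moved in both directions. Of the 36 members tested, 14 were higher in ear-shaded grains, 5 were lower and 17 did not pass. These shares, 38.9% and 13.9%, lie below those of all genes, of which 63.9% passed in either direction. The groups did not overlap in 25 of the 36, beside 70.2% of all genes, and the median log2 fold change of the members was 0.22, against 0.26 for all genes. The sulfolipid enzymes were higher in all 3 copies of SQD1 and in 3 of 8 tested copies of SQD2. MGDG synthase had 3 of 10 tested copies higher and 2 lower, none of them lower without ear-shaded replicate 1, and DGDG synthase 5 of 15 higher and 3 lower. With median-of-ratios or quantile scaling 11 members passed as lower, against a background of 31.1% or 28.6% of genes lower. With an absolute log2 fold change of at least 1 asked for as well, 5 members were higher and 2 lower, against 16.3% and 10.4% of all genes. Under the 4 scalings 11 members passed as higher and 4 as lower each time. The share of all genes that did so is not given here. In single scalings, 28.0% to 47.3% of all genes were higher and 18.7% to 31.1% lower. The authors' deposited table, which marks 16.8% of the tested genes up and 19.5% down, marks 6 members up, 4 down and 34 neither. Each marked member has an absolute deposited log2 fold change above 1, which the calls above did not ask for. Members marked neither include some with a deposited adjusted p under 0.05, such as 1DG0153750 (log2 fold change 0.97) and 6DG1154390 (-0.87).

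**Figure D1:**
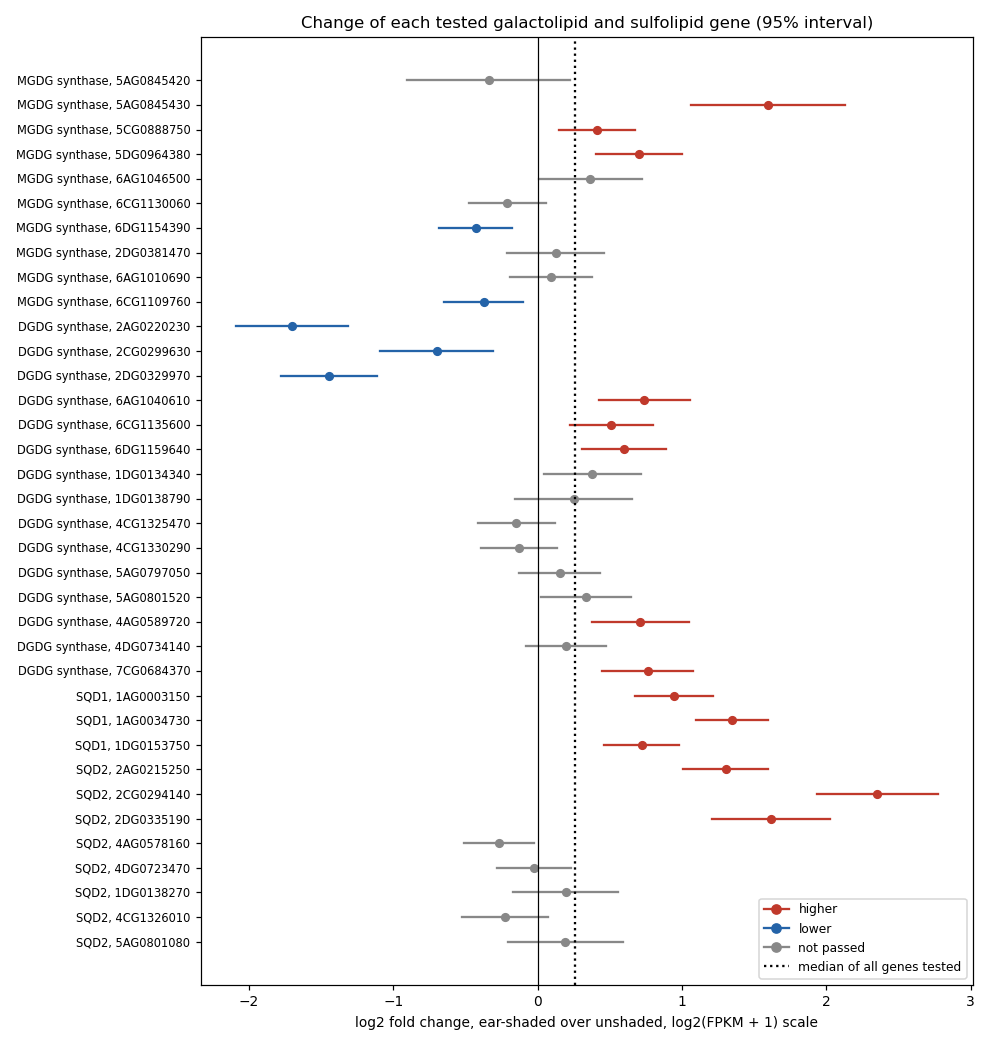
Log2 fold change (ear-shaded over unshaded, log2(FPKM + 1) scale, horizontal) of each of the 36 tested genes with its 95% interval, coloured by call; the dotted line is the median of all genes tested, 0.26. SQD1 and 3 SQD2 copies lie to the right with 5AG0845430, and the 3 DGDG synthase copies of 2A, 2C and 2D lie to the left.

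Summed over their copies, SQD1 and SQD2 were higher in ear-shaded grains under all 4 scalings, while the direction of MGDG and DGDG synthase turned with the scaling. MGDG synthase summed to 40.8, 43.5 and 43.2 FPKM in unshaded libraries 1 to 3 and to 51.0, 49.4 and 47.3 FPKM in ear-shaded libraries 1 to 3. All ear-shaded sums lay above the unshaded ones, with means of 42.5 ± 1.49 and 49.2 ± 1.83 FPKM (SD, n = 3), 1.16-fold, but the order turned with median-of-ratios scaling (0.880-fold) and quantile normalization (0.970-fold). DGDG synthase summed to 58.0, 54.3 and 60.9 FPKM and to 61.6, 62.2 and 56.2 FPKM. These groups overlapped, and the means of 57.7 ± 3.31 and 60.0 ± 3.31 FPKM gave a ratio of 1.04, which fell to 0.791 with median-of-ratios scaling and to 0.858 with quantile normalization.

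SQD1 summed to 3.80, 4.49 and 4.65 FPKM in unshaded and to 13.0, 12.7 and 12.1 FPKM in ear-shaded libraries. The groups were wholly separate at 4.31 ± 0.449 and 12.6 ± 0.482 FPKM, 2.93-fold, and 2.23-fold with median-of-ratios scaling. SQD2 summed to 20.8, 21.6 and 28.3 FPKM and to 42.8, 40.8 and 36.1 FPKM. Its groups were separate as well, at 23.6 ± 4.13 and 39.9 ± 3.45 FPKM, 1.69-fold, with unshaded library 3 the highest of its group and ear-shaded library 3 the lowest of its own. No test was run on sums. All 44 members together held 123, 124 and 137 FPKM in unshaded and 168, 165 and 152 FPKM in ear-shaded libraries. Their levels were modest. The tested members had a median of 2.58 FPKM (unshaded) and 4.49 FPKM (ear-shaded), where all tested genes had 2.60 and 3.25 FPKM, and a single member reached a mean of 10 FPKM.

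Within 3 of the enzymes, sets of copies moved apart, and each set's share of its enzyme's sum shows this. The sets were drawn after the values had been seen, from the membrane terms in the gene ontology column and from the chromosome in the ID, so they are a description. A share within 1 library, or a ratio between copies in it, is not altered when that whole library is scaled by a factor.

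**Figure D2:**
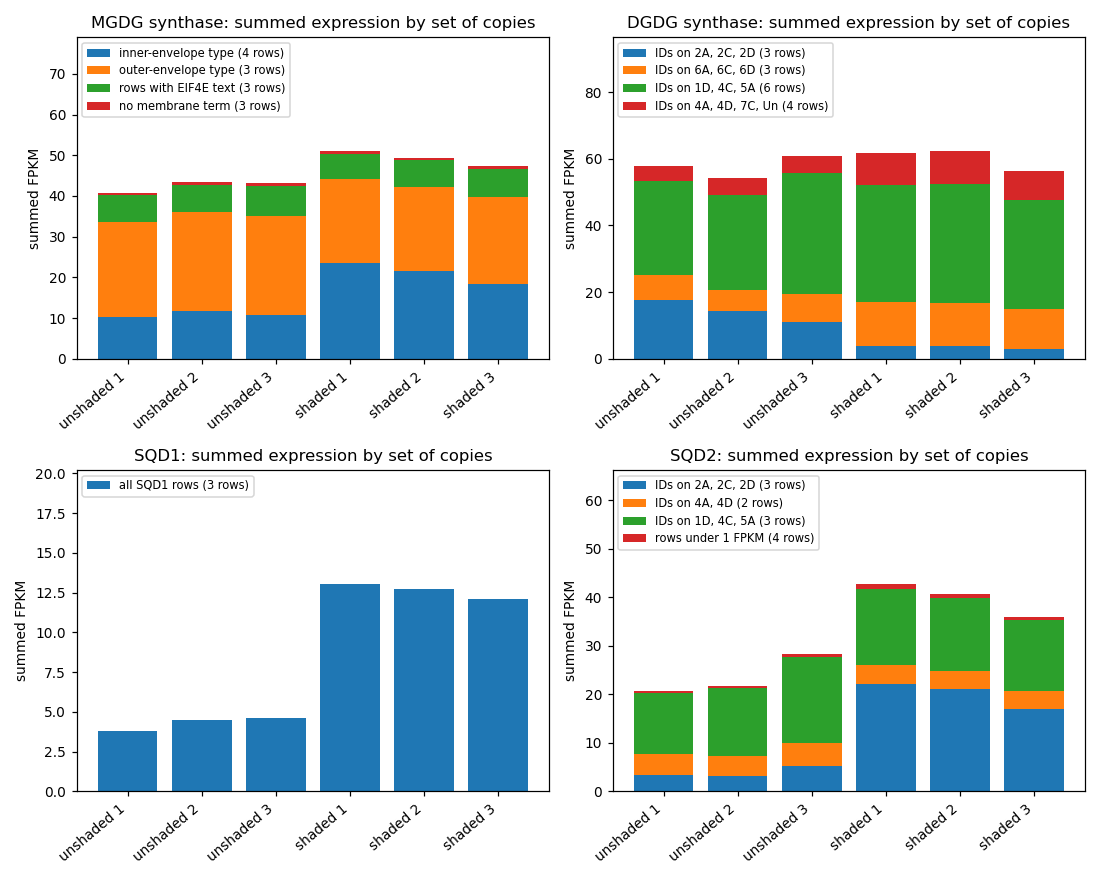
Summed FPKM (vertical) of each enzyme in each library (horizontal), stacked by set of copies. The inner-envelope MGDG synthase copies and the SQD2 copies of 2A, 2C and 2D take a larger part of the ear-shaded bars, and the DGDG synthase copies of 2A, 2C and 2D a smaller part.

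MGDG synthase shifted from copies annotated to the outer plastid membrane to copies annotated to the inner one. The 4 inner-membrane copies made up 25.9 ± 1.14% of the enzyme's FPKM in unshaded and 42.9 ± 3.52% in ear-shaded grains (SD, n = 3). The 3 outer-membrane copies made up 56.2 ± 0.753% and 42.4 ± 2.33%. The ratio of the inner to the outer sum was 0.443, 0.488 and 0.451 in unshaded and 1.14, 1.04 and 0.869 in ear-shaded libraries. No unshaded ratio reached the lowest ear-shaded one.

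Among the inner-membrane copies, 3 of 4 rose. The copy 5AG0845430 had 2.98, 1.37 and 3.10 FPKM in unshaded and 11.0, 9.22 and 7.71 FPKM in ear-shaded libraries. Every ear-shaded value exceeded every unshaded one, and this copy went from the 19th to the highest mean among the 44 members. It rose 3.75-fold, from 2.48 ± 0.967 to 9.32 ± 1.67 FPKM (log2 fold change 1.60, SE 0.23, limma adjusted p = 0.000646). The adjacent ID, 5AG0845420, had 1.28, 3.42 and 1.40 FPKM and then 1.25, 1.40 and 1.21 FPKM. It did not pass (log2 fold change -0.34, SE 0.24, limma adjusted p = 0.253), although the authors' deposited table marks it down with a log2 fold change of -1.06. In unshaded library 2 the first of these copies was low and the second high, and their ratio was 2.33, 0.400 and 2.21 in unshaded and 8.84, 6.57 and 6.37 in ear-shaded libraries. Reads may be divided between close copies, and the sum of both was steadier, at 4.26, 4.79 and 4.50 FPKM and then 12.3, 10.6 and 8.92 FPKM, 2.35-fold.

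The other inner-membrane copies have IDs on 5D and 5C. The copy 5DG0964380 had 2.90, 3.75 and 3.31 FPKM in unshaded and 6.03, 6.65 and 5.36 FPKM in ear-shaded libraries. It rose 1.81-fold without overlap (log2 fold change 0.70, SE 0.13, limma adjusted p = 0.00200). The copy 5CG0888750 had 3.16, 3.30 and 3.06 FPKM and 5.14, 4.29 and 4.22 FPKM. It rose 1.43-fold (log2 fold change 0.41, SE 0.11, limma adjusted p = 0.0145), a call lost without ear-shaded replicate 1 (adjusted p = 0.0728) and under median-of-ratios (log2 fold change 0.10) and quantile scaling (0.18).

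The outer-membrane copies, which also carry the term for the response to phosphate starvation, included the most abundant members in unshaded grains. The copy 6CG1130060 had 10.01, 11.8 and 10.7 FPKM in unshaded and 9.65, 8.58 and 9.40 FPKM in ear-shaded libraries. The groups were separate, but it did not pass (log2 fold change -0.21, SE 0.12, limma adjusted p = 0.144) except as lower under median-of-ratios (-0.57) and quantile scaling (-0.38). The copy 6DG1154390 fell from 9.69, 9.66 and 8.79 FPKM to 6.28, 7.01 and 6.82 FPKM. It was 1.40-fold lower (log2 fold change -0.43, SE 0.11, limma adjusted p = 0.00926), a call lost without ear-shaded replicate 1 (adjusted p = 0.0506). The copy 6AG1046500, with 3.58, 2.82 and 4.62 FPKM and then 4.70, 5.06 and 5.07 FPKM, pointed the other way and did not pass (log2 fold change 0.36, SE 0.15, limma adjusted p = 0.0682). It passed as higher with equal sums, with library weights and without unshaded replicate 3.

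The KEGG text of 3 further MGDG synthase genes also names translation initiation factor 4E, so their reads may belong to another function. The gene 6CG1109760 had 2.77, 2.66 and 2.62 FPKM in unshaded and 1.65, 1.72 and 2.17 FPKM in ear-shaded libraries, and was lower (log2 fold change -0.38, SE 0.12, limma adjusted p = 0.0229). That call was lost with equal sums (adjusted p = 0.0642), with ear-shaded replicates 1 and 2 averaged (0.0881), and when replicate 1 or 2 of either group was left out (0.0507 to 0.0966). The genes 2DG0381470, between 1.77 and 2.60 FPKM, and 6AG1010690, between 1.93 and 2.72 FPKM, overlapped and did not pass. The 3 remaining genes, 6AG1014320, 6CG1105960 and 6DG1185090, lay under the minimum, with no library above 0.557 FPKM.

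With the FPKM as deposited, DGDG synthase kept a similar sum while its copies moved in opposite directions. The copies with IDs on 2A, 2C and 2D held 25.1 ± 6.20% of the enzyme's FPKM in unshaded and 5.90 ± 0.468% in ear-shaded grains. Their sum fell from 17.7, 14.3 and 11.2 FPKM to 3.76, 3.88 and 3.02 FPKM. The copies with IDs on 6A, 6C and 6D held 12.6 ± 1.08% and 21.1 ± 0.516%, and their sum went from 7.40, 6.21 and 8.26 FPKM to 13.4, 12.9 and 11.8 FPKM. The ratio of the second set to the first was 0.418, 0.433 and 0.739 in unshaded and 3.55, 3.32 and 3.92 in ear-shaded libraries.

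All 3 copies of the chromosome 2 set fell, and they were the only DGDG synthase copies that passed as lower with the FPKM as deposited. The copy 2AG0220230 had 9.51, 8.001 and 5.95 FPKM in unshaded and 1.80, 1.82 and 1.42 FPKM in ear-shaded libraries. It dropped from the third highest mean among the members to the 31st, 4.66-fold lower (log2 fold change -1.70, SE 0.17, limma adjusted p = 0.000118). The copy 2DG0329970 had 5.60, 4.35 and 3.73 FPKM and then 0.962, 1.09 and 1.02 FPKM. It was 4.46-fold lower (log2 fold change -1.45, SE 0.14, limma adjusted p = 0.000123). The copy 2CG0299630 had 2.59, 1.97 and 1.50 FPKM and then 0.996, 0.968 and 0.581 FPKM. It was 2.38-fold lower (log2 fold change -0.70, SE 0.17, limma adjusted p = 0.00748), and its ratio to the 2A copy went from 0.272, 0.246 and 0.251 to 0.553, 0.533 and 0.410. The authors' deposited table marks all 3 down, with log2 fold changes of -2.62, -2.55 and -1.66 for the 2A, 2D and 2C copies.

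All 3 copies of the chromosome 6 set rose. The copy 6AG1040610 had 2.17, 1.63 and 2.48 FPKM in unshaded and 4.39, 3.83 and 4.21 FPKM in ear-shaded libraries (1.98-fold, log2 fold change 0.74, SE 0.14, limma adjusted p = 0.00204). The copy 6DG1159640 had 2.31, 1.94 and 2.64 FPKM and 3.89, 4.40 and 3.66 FPKM (1.73-fold, log2 fold change 0.60, SE 0.13, limma adjusted p = 0.00403). The copy 6CG1135600 had 2.91, 2.63 and 3.14 FPKM and 5.09, 4.64 and 3.94 FPKM (1.57-fold, log2 fold change 0.51, SE 0.12, limma adjusted p = 0.00789). In each copy the lowest ear-shaded library exceeded the highest unshaded one, although the call of 6CG1135600 was lost with median-of-ratios scaling and quantile normalization. None of these chromosome 2 or chromosome 6 copies carries a membrane term in the table.

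The remaining DGDG synthase copies are annotated to the outer plastid membrane. Those with IDs on 1D, 4C and 5A were the largest set of the enzyme, with 31.1 ± 4.57 FPKM (unshaded) and 34.5 ± 1.50 FPKM (ear-shaded), and the libraries overlapped. None of these 6 passed. Their log2 fold changes ran from -0.15 (4CG1325470, limma adjusted p = 0.283) to 0.38 (1DG0134340, limma adjusted p = 0.0512). The most abundant in ear-shaded grains, 5AG0801520, had 5.21, 5.75 and 7.22 FPKM and then 8.26, 7.69 and 7.57 FPKM (log2 fold change 0.33, SE 0.13, limma adjusted p = 0.0581). The values of 4CG1330290 lay between 5.70 and 7.45 FPKM, of 4CG1325470 between 4.62 and 6.23 FPKM, of 1DG0134340 between 3.43 and 6.02 FPKM, of 1DG0138790 between 3.71 and 6.41 FPKM and of 5AG0797050 between 3.21 and 4.33 FPKM. The calls depended on scaling and on single libraries. The copies 4CG1325470 and 4CG1330290 passed as lower under median-of-ratios (log2 fold changes -0.48 and -0.47) and quantile scaling. Without unshaded replicate 3, which was the highest of its group in all 6 copies, 1DG0134340, 1DG0138790 and 5AG0801520 passed as higher (0.50, 0.44 and 0.45). With equal sums 1DG0134340 and 5AG0801520 passed as higher too, and 1DG0134340 also without ear-shaded replicate 3 (limma adjusted p = 0.0358).

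Outer-membrane copies elsewhere were low in unshaded grains, and 2 of 3 tested rose. The gene 4AG0589720 had 1.87, 2.93 and 2.20 FPKM in unshaded and 3.96, 4.72 and 4.58 FPKM in ear-shaded libraries, 1.89-fold (log2 fold change 0.71, SE 0.15, limma adjusted p = 0.00346). At 950 bases it is the shortest member, and its call was lost with median-of-ratios scaling (adjusted p = 0.0512). The gene 7CG0684370 had 0.833, 0.827 and 1.00 FPKM and 2.72, 2.09 and 1.83 FPKM, 2.50-fold (log2 fold change 0.76, SE 0.14, limma adjusted p = 0.00177). The gene 4DG0734140, between 0.821 and 1.39 FPKM, did not pass (limma adjusted p = 0.180). The gene UnG1430800, the most abundant of the 8 members under the minimum, had 0.719, 0.538 and 0.746 FPKM and then 1.55, 1.46 and 0.954 FPKM and was not tested.

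SQD1, which makes the sulfur-carrying sugar of the sulfolipid, rose in each of its copies. The copy 1AG0034730 had 2.09, 2.45 and 2.41 FPKM in unshaded and 7.67, 7.45 and 7.12 FPKM in ear-shaded libraries. It rose 3.20-fold, from 2.32 ± 0.200 to 7.41 ± 0.277 FPKM (log2 fold change 1.34, SE 0.11, limma adjusted p = 5.87e-05). The copy 1AG0003150 had 1.10, 1.29 and 1.44 FPKM and 3.47, 3.57 and 3.08 FPKM, 2.65-fold (log2 fold change 0.94, SE 0.12, limma adjusted p = 0.000305). The copy 1DG0153750 had 0.614, 0.754 and 0.791 FPKM and 1.90, 1.70 and 1.90 FPKM, 2.54-fold (log2 fold change 0.72, SE 0.11, limma adjusted p = 0.000896). No copy overlapped between groups, all 3 passed in each other fit that tested them, and their spread within a group was small beside the difference. The table's orthologous group text calls all 3 GDP-mannose 4,6 dehydratase, so the name SQD1 rests on the KEGG number.

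SQD2, which completes the sulfolipid, rose in its chromosome 2 copies. This set held 16.8 ± 1.92% of the enzyme's FPKM in unshaded and 50.4 ± 2.58% in ear-shaded grains. Its sum went from 3.45, 3.26 and 5.35 FPKM to 22.1, 21.2 and 17.1 FPKM, 5.01-fold. The copies with IDs on 1D, 4C and 5A went from 62.6 ± 2.42% to 38.0 ± 1.96% of the enzyme's FPKM while their own sum stayed at 14.8 ± 2.55 and 15.1 ± 0.629 FPKM. The ratio of the chromosome 2 set to that set was 0.274, 0.231 and 0.305 in unshaded and 1.40, 1.41 and 1.18 in ear-shaded libraries.

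The largest fold of any tested member was that of the SQD2 copy 2CG0294140, which entered the test through its ear-shaded libraries. It had 0.597, 0.464 and 1.19 FPKM in unshaded and 8.41, 8.63 and 6.55 FPKM in ear-shaded libraries. It rose 10.5-fold, from 0.751 ± 0.388 to 7.86 ± 1.14 FPKM (log2 fold change 2.35, SE 0.18, limma adjusted p = 5.24e-05), and went from the 35th to the third highest mean among the members. The copy 2DG0335190 had 0.928, 0.956 and 1.68 FPKM and 6.63, 5.87 and 4.59 FPKM, 4.80-fold (log2 fold change 1.62, SE 0.18, limma adjusted p = 0.000179). The copy 2AG0215250 had 1.92, 1.84 and 2.48 FPKM and 7.10, 6.70 and 5.95 FPKM, 3.16-fold (log2 fold change 1.30, SE 0.13, limma adjusted p = 0.000116). The order of the copies changed with the treatment: the 2C copy lay below the 2A copy in every unshaded library, at ratios of 0.310, 0.252 and 0.481, and above it in every ear-shaded library, at 1.18, 1.29 and 1.10. In each of the 3 copies unshaded library 3 was the highest of its group and ear-shaded library 3 the lowest of its own.

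The other SQD2 copies did not pass with the FPKM as deposited. The copy 4AG0578160, which carries the sulfolipid term like the chromosome 2 copies, had 1.86, 1.77 and 2.00 FPKM and then 1.42, 1.35 and 1.39 FPKM (log2 fold change -0.27, SE 0.10, limma adjusted p = 0.0537). Its relative 4DG0723470 lay between 2.23 and 2.72 FPKM (limma adjusted p = 0.833). The copies without that term were 1DG0138270, between 2.36 and 3.88 FPKM, 4CG1326010, between 4.28 and 6.53 FPKM, and 5AG0801080, between 4.82 and 7.89 FPKM, and all overlapped (limma adjusted p from 0.155 to 0.358). With median-of-ratios scaling and quantile normalization, 4AG0578160, 4DG0723470 and 4CG1326010 passed as lower, and without unshaded replicate 3 the copy 5AG0801080 passed as higher (log2 fold change 0.38). The copies 1CG0111760, 1DG0138260, 3AG0405940 and 3CG0453430 lay under the minimum, with no library above 0.583 FPKM.

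**Figure D3:**
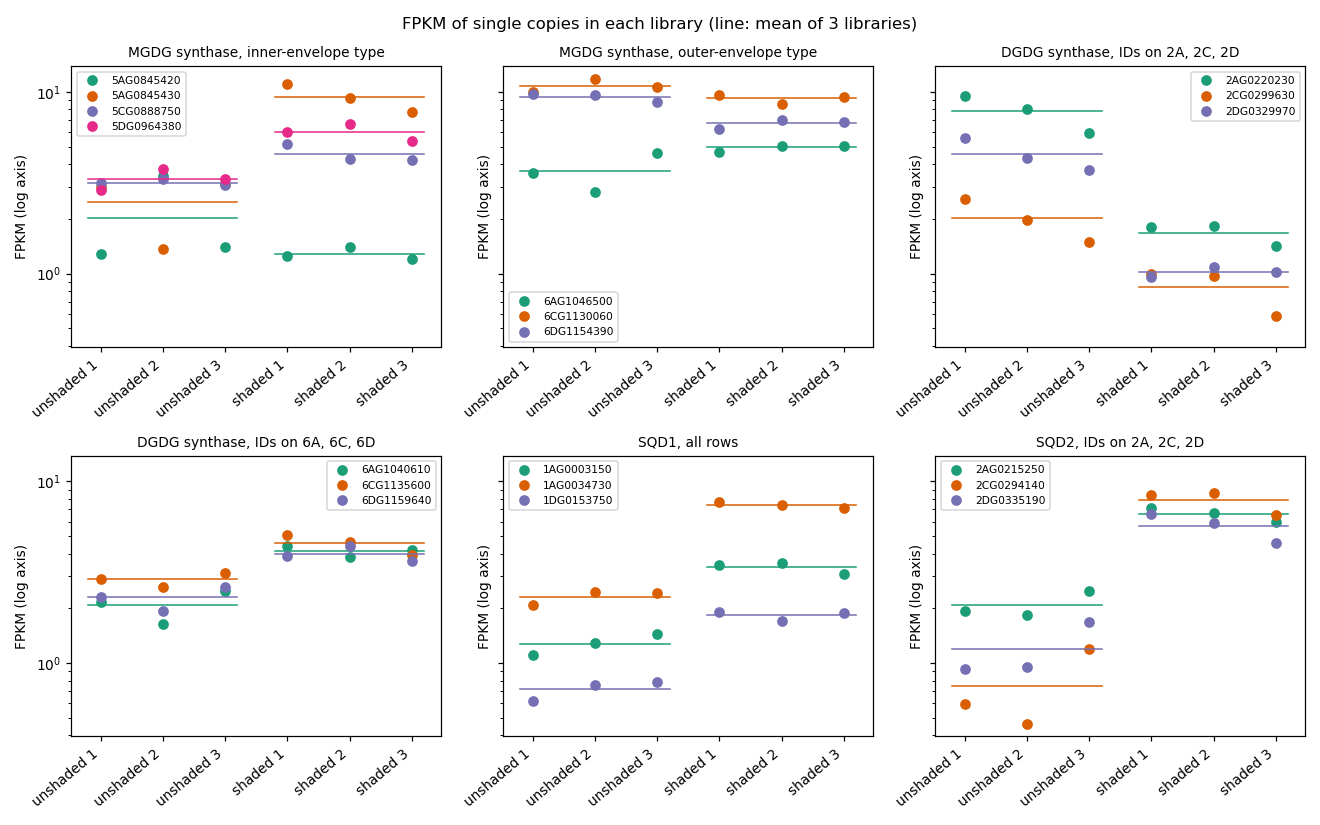
FPKM (vertical, log axis) of single copies in each library (horizontal) for 6 sets, with a line at the mean of the 3 libraries of a group. The inner-envelope MGDG synthase copy 5AG0845430, SQD1 and the SQD2 copies of chromosomes 2A, 2C and 2D lie higher in ear-shaded libraries, and the DGDG synthase copies of those chromosomes lower.

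Terms in the table crossed the enzymes in different ways. Of the 11 members with the term for the response to phosphate starvation, which are the outer-membrane MGDG synthase copies, SQD1 and 5 SQD2 copies, 6 were higher, 1 was lower and 4 did not pass, against 42.4% higher and 21.5% lower among all genes. The 6 that rose are all sulfolipid genes. Of 12 tested members with the outer-membrane term, 2 were higher and 1 was lower, beside the same shares of all genes. Copies of SQD2 and of DGDG synthase with IDs on 2A, 2C and 2D moved in opposite directions, 3 of 3 higher and 3 of 3 lower.

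Scaling shifted the log2 fold changes of the members together. The members that rose 2-fold or more in mean FPKM kept their call under each of the 4 scalings, as did the 3 chromosome 2 copies of DGDG synthase. Of the 17 members that did not pass, 8 had a log2 fold change that was negative with median-of-ratios scaling and positive with the FPKM as deposited.

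**Figure D4:**
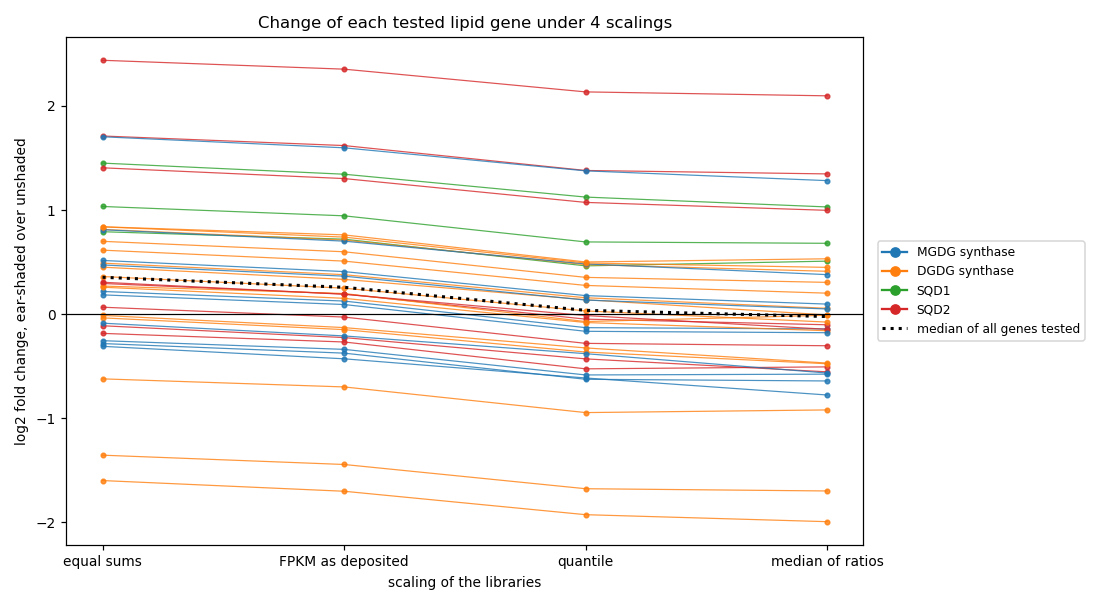
Log2 fold change (vertical, ear-shaded over unshaded) of each tested gene under 4 scalings of the libraries (horizontal), coloured by enzyme; the dotted line is the median of all genes, from 0.35 with equal sums to -0.02 with median of ratios. The lines keep nearly the same order and shift together.

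Genes that feed or follow these enzymes were taken by KEGG number. For the supply of UDP-sugars, 6 of 15 tested genes were higher and 3 lower, against 42.4% and 21.5% of all genes, and 3 were higher with median-of-ratios scaling. The UDP-glucose pyrophosphorylase 5CG0875260, which makes UDP-glucose, had 39.0, 28.9 and 36.4 FPKM in unshaded and 115, 110 and 97.8 FPKM in ear-shaded libraries. It rose 3.10-fold (log2 fold change 1.61, limma adjusted p = 0.000139). Its KEGG text names no compartment, and whether it serves SQD1 in the plastid was not tested. The UDP-glucose 4-epimerase 5AG0855650, which interconverts UDP-glucose and UDP-galactose, had 1.03, 2.26 and 1.50 FPKM and 13.2, 11.2 and 6.20 FPKM. It rose 6.37-fold (log2 fold change 2.08, limma adjusted p = 0.000422), with ear-shaded library 3 well under the other two.

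The desaturases that act on plastid lipids were counted by type, beside 42.4% higher and 21.5% lower among all genes. FAD6, which makes linoleate on plastid lipids, was lower in 3 of 3 copies. Its most abundant copy, 5CG0921850, had 19.0, 19.3 and 15.4 FPKM in unshaded and 13.2, 13.6 and 13.3 FPKM in ear-shaded libraries, 1.34-fold lower (log2 fold change -0.39, limma adjusted p = 0.0278). That call was lost with equal sums (adjusted p = 0.0878), with ear-shaded replicates 1 and 2 averaged (0.0831) and when replicate 1 or 2 of either group was left out (adjusted p from 0.0792 to 0.0909). Among the omega-3 desaturases, whose KEGG number joins the plastid and the endoplasmic reticulum forms, 6 of 10 tested genes were higher and 0 lower. Their median log2 fold change lay 0.79 above that of all genes. With no filter on low values, 7 of 14 were higher and 2 lower, with a median 0.32 above. The share of all genes called without the filter is not given here. The gene 5AG0803480 had 1.10, 1.15 and 1.98 FPKM and 9.15, 10.7 and 6.67 FPKM, 6.28-fold (log2 fold change 2.03, limma adjusted p = 0.000120).

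The lists of the first step and of galactolipid remodelling held few genes. The plastid glycerol-3-phosphate acyltransferase ATS1, which starts lipid assembly inside the plastid, had 1 of 3 copies higher. That copy, 1CG0081300, had 1.28, 1.58 and 1.37 FPKM and 2.35, 1.99 and 2.21 FPKM (1.55-fold, limma adjusted p = 0.0149), a call lost with median-of-ratios scaling and quantile normalization and without unshaded or ear-shaded replicate 1. The other ATS1 copies, 1AG0055650 (1.17-fold) and 1DG0174250 (1.19-fold), did not pass. SFR2, which in Arabidopsis moves galactose between galactolipids after freezing, had 2 tested genes. UnG1432520 had 0.420, 0.545 and 0.730 FPKM and 1.92, 2.10 and 1.76 FPKM, 3.41-fold (log2 fold change 0.91, limma adjusted p = 0.000508). Its unshaded mean of 0.565 FPKM lay under the minimum, so it entered the test through the ear-shaded libraries. UnG1406480, with 1.98, 2.01 and 1.92 FPKM and then 1.64, 1.82 and 1.35 FPKM, did not pass (log2 fold change -0.19, limma adjusted p = 0.181), but passed as lower under median-of-ratios (-0.44) and quantile scaling (-0.45).

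Genes that break down phospholipids were higher in most cases tested. Of 44 tested genes of phospholipid recycling 35 were higher and 0 lower, against 42.4% and 21.5% of all genes. With median-of-ratios scaling 27 of these genes were higher, where the background is 28.0%. Their median log2 fold change lay 0.91 above that of all genes. The glycerophosphodiester phosphodiesterases, which release glycerol phosphate from deacylated phospholipids, were higher in 15 of 15, the phospholipases D in 14 of 15, the phospholipases C in 5 of 7, and the phosphatidate phosphatases of the lipin type in 1 of 7. The filter takes the mean of both groups, so a gene low in unshaded grains can enter through the ear-shaded libraries. With no filter, 41 of 81 genes of the list were higher and 1 lower, with a median 0.33 above that of all genes. The phosphodiesterases were then higher in 18 of 25 and the phospholipases C in 8 of 12. The phospholipases D were higher in 14 of 37 and lower in 1, with a median 0.03 above. For these counts without a filter, the share of all genes called is not given here. The phosphodiesterase 4AG0595900 had 0.155, 0.534 and 0.265 FPKM in unshaded and 7.14, 6.76 and 4.30 FPKM in ear-shaded libraries (19.1-fold, log2 fold change 2.41, limma adjusted p = 5.92e-05). The phospholipase C 4AG0616650 had 14.9, 19.2 and 19.3 FPKM and 57.5, 61.1 and 41.7 FPKM (3.00-fold, log2 fold change 1.52, limma adjusted p = 0.000291). Both sets of libraries were wholly separate.

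Most genes that build phospholipids did not pass. For phosphatidylglycerol, the phospholipid of thylakoids, 1 of 19 tested genes was higher and 3 were lower, against 42.4% and 21.5% of all genes. Without unshaded replicate 3, 4 were higher. With median-of-ratios scaling 8 were lower, where the background is 31.1%. The KEGG numbers of this list name no compartment, so plastid forms were not told apart from others. The phosphatidylglycerol phosphate synthase 5AG0802970 had 5.41, 6.88 and 5.12 FPKM and 1.97, 2.13 and 2.90 FPKM, 2.48-fold lower (log2 fold change -1.03, limma adjusted p = 0.000781). The most abundant gene of that list, 4CG1310880, whose text also names a calmodulin-binding transcription activator, had 9.34, 7.64 and 28.2 FPKM and 21.7, 21.7 and 16.2 FPKM. It overlapped between groups and did not pass (log2 fold change 0.59, limma adjusted p = 0.247), but it passed as higher when unshaded replicate 3 was left out (1.13, adjusted p = 0.00160) and with library weights. For phospholipid synthesis outside plastids, 1 of 13 tested genes was higher, or 3 when unshaded replicate 2 was left out and 2 when ear-shaded replicate 2 was, and 2 were lower, or 7 with median-of-ratios scaling or quantile normalization, where 31.1% and 28.6% of all genes were lower. The phosphatidylserine synthase 1AG0005800 had 2.97, 3.14 and 4.16 FPKM and 1.84, 2.15 and 1.36 FPKM, 1.92-fold lower (log2 fold change -0.67, limma adjusted p = 0.00665). The ethanolaminephosphotransferase 7AG1208100 did not pass (1.27-fold, limma adjusted p = 0.0568), except as higher with equal sums, with library weights, at a minimum of 5 FPKM and without unshaded replicate 2. The thylakoid antenna, whose proteins sit in the membranes made of these lipids, had 41 of 41 tested genes higher, against 42.4% of all genes. Of its 87 genes, 46 lay under the minimum, and antenna genes low in unshaded grains could enter through the ear-shaded libraries. With no filter on low values, 55 of the 87 were higher and 0 lower, and the share of all genes in that fit is not given here. The antenna gene of the highest mean, the LHCB1 copy 5CG0875470, had 0.718, 0.288 and 0.813 FPKM in unshaded and 76.1, 75.4 and 55.8 FPKM in ear-shaded libraries.

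**Figure D5:**
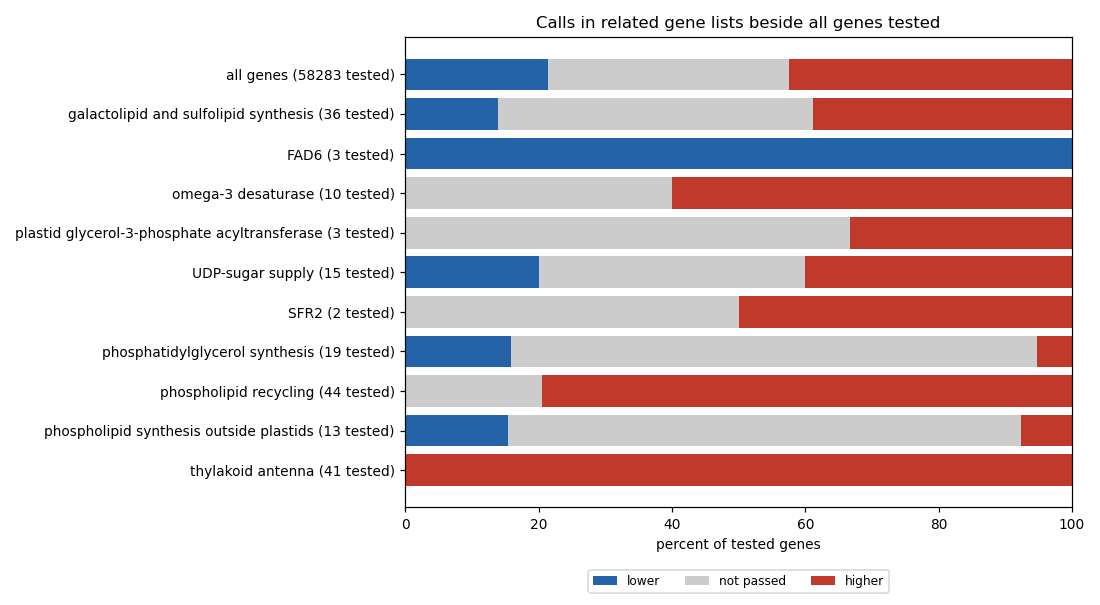
Percent of tested genes (horizontal) that were lower, did not pass or were higher in ear-shaded grains, for all genes, the galactolipid and sulfolipid genes and 9 related lists (vertical), with the number tested in brackets. Phospholipid recycling and the thylakoid antenna are mostly higher, and the lists of phospholipid synthesis mostly did not pass.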

How the data were processed

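The authors deposited FPKM for each gene and library, with gene length, KEGG and gene ontology text. Beside these the authors deposited a log2 fold change, a p-value and an adjusted p-value of their own comparison. That log2 fold change is smaller than the log2 ratio of mean FPKM by a median of 0.382, so its scaling was another. The submitters' processing notes name HISAT2 and StringTie but no version or role. Per the labels' protocols an Illumina kit was used for the library, while a PacBio sequencer is named as well. The build, the annotation, the use of strand and the program of the authors' comparison are items not given in the sources used here. Reads of close copies or overlapping genes may therefore be divided or joined.

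Samples were grouped by the treatment label. A gene entered the test at a mean of 1 FPKM or more. The values log2(FPKM + 1) were fitted with limma 3.58.1 in R 4.3.3, using a mean-variance trend. Tests were two-sided, with p adjusted after Benjamini and Hochberg across every gene tested, at a threshold of 0.05. The model was tested on simulated data. Tables and figures were made with Python 3.11.15, pandas 2.3.3 and matplotlib 3.10.9. Since FPKM are not counts, count models were left out. Whole reads could not be traced, since at the best step only 11.5% to 11.8% of low values came within 0.05 of a whole number. Depth is therefore unknown, and no counting intervals are given.

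The members and lists were chosen with earlier results of these data known. Every member is named. Tested members are given by the value in each library or, for 12 that did not pass, by the lowest and highest library. Members under the minimum are given by their highest library, and the most abundant of them by library. Of each list, the most abundant gene and the called gene of largest change at 2 FPKM or more are named. The other tested genes of SFR2 and of the plastid acyltransferase were added after their values were seen. KEGG numbers searched with no gene in the table were those of FAD4, FAD5, TGD1 to TGD3, DAD1, the cholinephosphotransferases and the other phosphatidylserine synthase. Alternatives covered the pseudocount, the filter, 3 other scalings, the variance trend, weights per library, a block for the replicate number, stricter calls, each library left out and ear-shaded replicates 1 and 2 averaged. Over genes, these 2 replicates correlated at r = 0.989, and the remaining pairs within groups at 0.949 to 0.965. No genome or sequence was used here.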

Additional observations from a re-analysis of the deposited data

How the results depend on the processing

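Of the 36 members tested, 11 higher and 3 lower calls held in every other fit that tested them. The share of all genes whose calls held in this way is not given here. Against 14 higher and 5 lower members, a minimum of 5 FPKM left 1 and 1, and a log2 fold change of at least 1 left 5 and 2. The authors' marks, which in the members all go with an absolute log2 fold change above 1, gave 6 higher. Median-of-ratios scaling and quantile normalization each gave 11 lower members. Of all genes, 31.1% and 28.6% were lower in these fits, against 21.5% with the FPKM as deposited, and the cause was not tested. Leaving out 1 library gave 13 to 19 higher and 3 to 5 lower members, with 3 lower without ear-shaded replicate 1 and 19 higher without unshaded replicate 3. All genes that passed numbered 37227, 56196 without a filter, 12567 at 5 FPKM and 30665 to 38069 with 1 library left out. The lists without the antenna had 51 of 109 tested genes higher and 11 lower, 46.8% and 10.1%, against 42.4% and 21.5% of all genes. At 5 FPKM 26 of their genes were higher and 5 lower. With median-of-ratios scaling 22 were lower and with quantile normalization 20, where 31.1% and 28.6% of all genes were lower. The shares of all genes higher or lower at 5 FPKM or with 1 library left out are not given here.

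The sum of MGDG synthase was 1.16-fold, 0.880 with median of ratios, 0.970 with quantiles and 1.27 with equal sums. That of DGDG synthase was 1.04, with 0.791, 0.858 and 1.14. SQD1 gave 2.93, with 2.23 for median of ratios and 2.33 for quantiles, and SQD2 1.69, with 1.30 and 1.40. Members not passing changed sign. With median-of-ratios scaling the log2 fold changes were -0.077 (1DG0138790), -0.16 (5AG0797050), -0.0085 (5AG0801520), -0.011 (4DG0734140), -0.14 (2DG0381470), -0.18 (6AG1010690), -0.10 (1DG0138270) and -0.15 (5AG0801080). With quantile normalization they were -0.081 (5AG0797050), -0.072 (4DG0734140), -0.13 (2DG0381470), -0.17 (6AG1010690), -0.049 (1DG0138270) and -0.014 (5AG0801080). For 4DG0723470 it was 0.066 with equal sums, and with 1 library left out it ran from -0.074 (without unshaded replicate 2) to 0.029 (without unshaded replicate 3).

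The replicate number as a block gave 14 higher and 4 lower members, 46 higher and 11 lower list genes and 33446 genes in all. Deviations of same-numbered libraries correlated at -0.052, -0.046 and -0.147, so no pairing by number showed in the values. The labels do not say whether the numbers pair the samples. Under the block, 6CG1109760 (limma adjusted p = 0.0678), the FAD6 copy 5CG0921850 (0.0720) and the ATS1 copy 1CG0081300 (0.0555) did not pass. Depth is unknown, which limits statements on members under 1 FPKM.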
